A study of Sus scrofa with 26 samples.

Results

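The enzymes of glycolysis were followed in the subcutaneous adipose tissue (SCAT) of pigs on one-colour microarrays. The set held 10 genes, taken as the hexokinases HK1 and HK2, glucose-6-phosphate isomerase (GPI), the liver type of phosphofructokinase (PFKL), aldolase A (ALDOA), triosephosphate isomerase (TPI1), phosphoglycerate kinase 1 (PGK1), enolase 1 (ENO1), the muscle type of pyruvate kinase (PKM) and lactate dehydrogenase A (LDHA). A probe belonged to a gene when its symbol, a synonym or former symbol of the gene, its accession or its description named that gene. All 5 probes of PKM were found through a former symbol of the gene. The rule found 35 probes for 9 of the 10 genes, out of 60305 probes on the array, and no probe for PFKL, which was not analysed here. A probe was tested when it was well above background on at least 8 arrays, which held for 34 of the 35 probes and for 44703 probes in all. The probe left out was 1 of the 7 probes of GPI and was not well above background on any array. Each gene is represented by its tested probe with the highest mean level, and its other probes are counted beside it.

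The tissue came from 26 castrated male pigs with 1 animal per array, of the Creole and Large White (LW) breeds and their cross (F1). Thermoneutral (TN) pigs were kept at 24 °C, with 3 Creole, 4 F1 and 4 LW animals. Heat-stressed (HS) pigs, with 5 animals in each breed, were given 30 °C by the sample labels and 32 °C for 5 days by the series text. The animals were growing pigs with free access to feed, and their ages are not given in the labels. The TN pigs were killed before the temperature was raised, and for that reason temperature, day of slaughter and age cannot be told apart. Nor can temperature and the lower feed intake, since all HS pigs fed freely in the heat. Levels are the log2 of the quantile-normalised median intensity of a spot, so a difference of 1 means a doubling, and they are compared between animals only within a probe. Differences were tested with limma, and the Benjamini-Hochberg adjustment ran across the 44703 probes, with 0.05 as the threshold.

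Glycolysis splits glucose into pyruvate in the cytosol and gains ATP and NADH on the way. In fat cells the pathway also feeds the glycerol backbone of triglycerides and, through pyruvate, the synthesis of fatty acids, for which adipose tissue is a main site in pigs. Hexokinases trap glucose in the cell by phosphorylating it. GPI, phosphofructokinase, aldolase and triosephosphate isomerase then turn the hexose into triose phosphates. PGK1 and PKM catalyse the steps that yield ATP, with ENO1 between them, and LDHA reduces pyruvate to lactate.

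All 26 arrays carried signal of a similar quality. Between 68.51% and 76.58% of the spots of an array were well above background, and no spot was saturated. Arrays of the same group correlated over the tested probes at r of 0.974 to 0.993 and arrays of different groups at 0.972 to 0.992. Of 8 adipocyte markers, 7 were measured, and all 7 were well above background on all 26 arrays.

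Transcripts of PKM, PGK1 and ENO1 were lower in HS than in TN pigs. Of the 9 genes, 3 passed the threshold for HS minus TN and all 3 were lower, where 12.6% of all named genes passed and 7.68% passed and were lower (1 probe per gene, 10488 genes). On the log2 scale, the difference was -0.81 for PKM, -0.48 for PGK1 and -0.28 for ENO1. The other 6 genes had differences between -0.56 and -0.10 that did not pass. The median difference of the 9 genes was -0.19, and that of all tested probes was 0.00242. All 9 genes had a negative difference, as did 51.2% of named genes. So did all 34 tested probes of the set, and 15 of them passed, where 12.2% of all tested probes passed. Of these 15, 7 were probes of PGK1 and 4 of PKM, and probes of the same gene are not independent measurements.

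In bulk tissue, fewer cells of a type and less RNA per cell cannot be told apart. Markers of other cell types moved with temperature as well. Averaged over 5 markers of red blood cells, the level was 0.32 lower in HS pigs, with a range of -0.03 to 0.57 in TN and -0.49 to 0.37 in HS around the mean of all arrays, and 2 of the 5 passed the test. HBB, a haemoglobin chain, differed by -0.85 (limma, adjusted p = 0.0110) and EPB42 by -0.38 (limma, adjusted p = 0.0294), whereas AHSP (-0.47, limma adjusted p = 0.0521), ALAS2 (0.04) and SLC4A1 (0.06) did not pass. The mean of 10 fibroblast and matrix markers was 0.24 higher in HS pigs, with a range of -0.78 to 0.27 in TN and -0.26 to 0.52 in HS, and 5 of the 10 passed. The mean of the 7 adipocyte markers differed by -0.03 and ranged from -0.17 to 0.22 in TN and from -0.41 to 0.51 in HS, and 1 of the 7 passed (ADIPOQ, 0.16 higher in HS, limma adjusted p = 0.0384). The mean of 14 skeletal muscle markers was 0.46 higher in HS pigs, with none of the 14 past the threshold and a range of -2.19 to 1.15 in TN and -1.28 to 2.57 in HS. The red blood cell, matrix and muscle means were each entered as a covariate in the fit, and the part of the adipocyte markers was not tested.

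**Figure D1:**
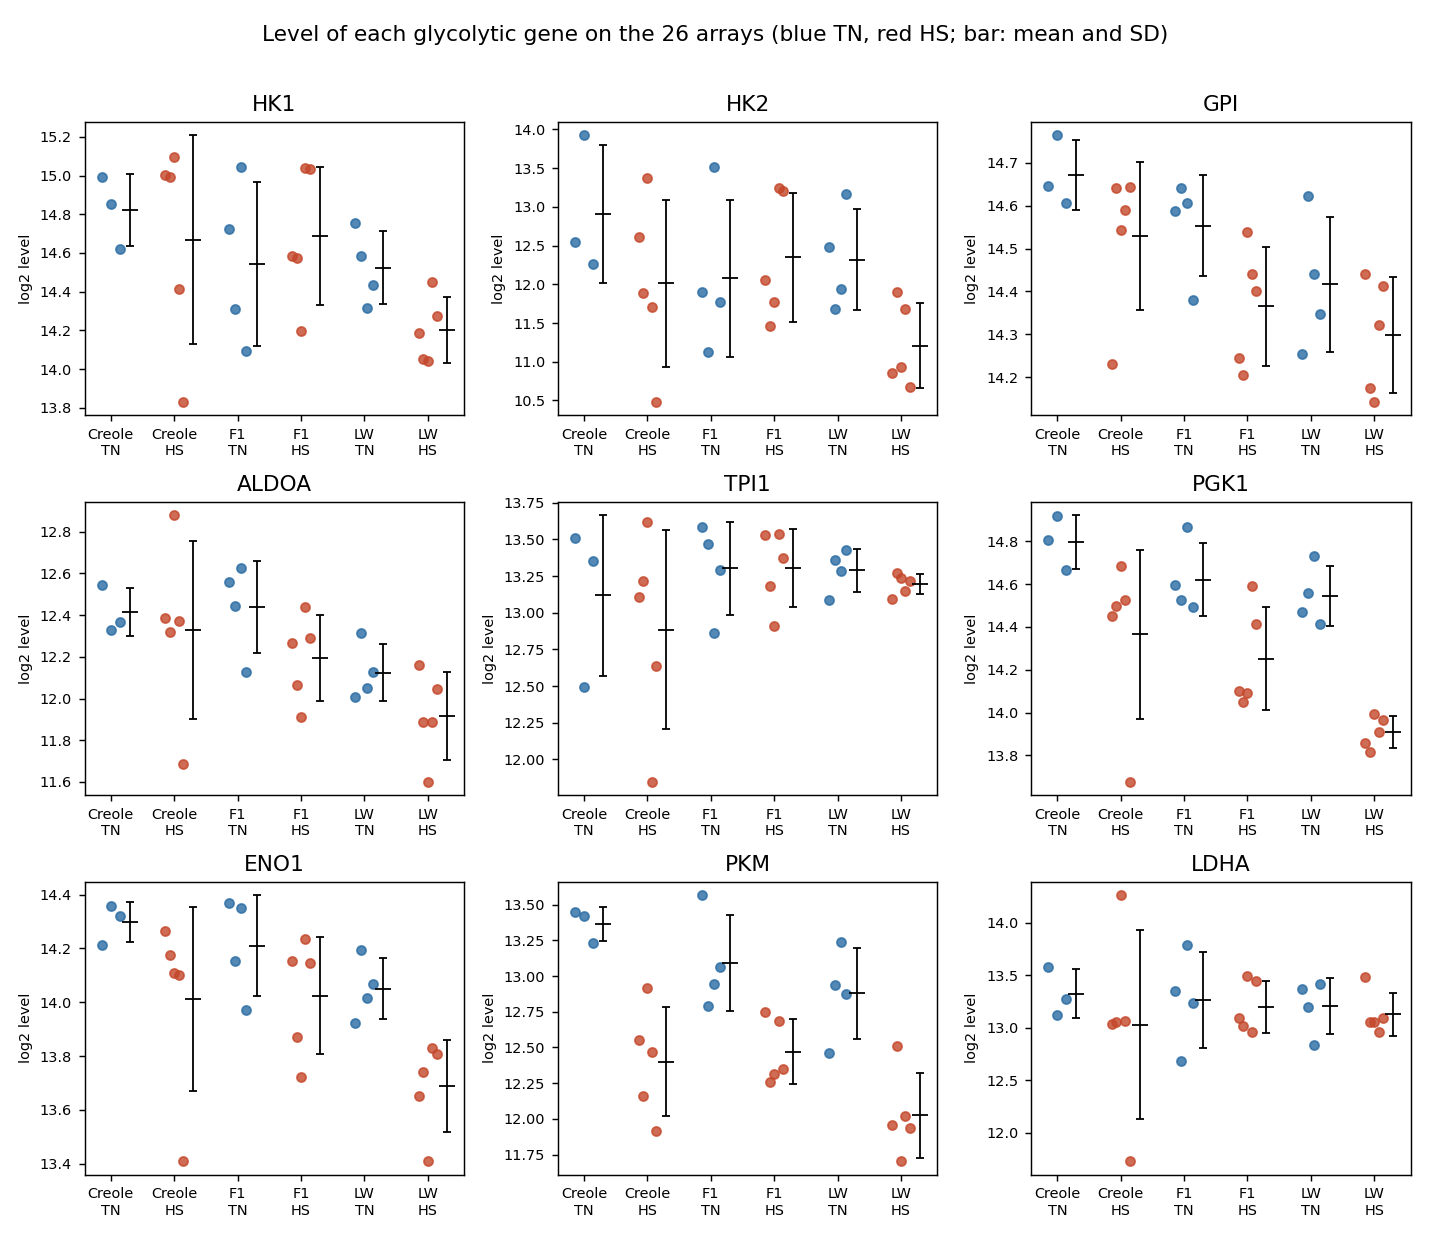
Level of each gene on the 26 arrays, as the log2 of the normalised intensity of its representative probe, by breed and temperature. Points are animals and the bars to their right are the mean and SD of the group. All 15 HS animals lie below the TN mean of their own breed for PKM and PGK1, whereas the TN and HS points of LDHA and TPI1 overlap in each breed.

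PKM, which turns phosphoenolpyruvate into pyruvate in the last step of the pathway, showed the largest difference of the 9 genes. In TN pigs, the levels were 13.45, 13.42 and 13.23 in Creole, 13.57, 12.79, 12.95 and 13.06 in F1, and 12.46, 12.94, 13.24 and 12.88 in LW. In HS pigs, they were 12.55, 12.16, 12.92, 12.47 and 11.92 in Creole, 12.75, 12.26, 12.31, 12.68 and 12.35 in F1, and 11.96, 12.51, 11.70, 12.02 and 11.94 in LW. Every HS animal lay below the TN mean of its own breed, which held for 1.98% of all tested probes, and 9 of the 15 HS animals lay below the lowest TN animal. Within Creole and within F1 the TN and HS animals did not overlap (3.55% and 3.73% of all tested probes), and in LW 1 HS animal overlapped the TN range.

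The mean level of PKM was 13.09 ± 0.33 (SD) over the 11 TN animals and 12.30 ± 0.35 (SD) over the 15 HS animals. The fitted difference was -0.81 ± 0.11 (SE), a ratio of 0.572, with an adjusted p of 0.000146 (limma). Within the 5 slides, each of which held both temperatures, the difference ran from -1.05 to -0.58. The call held in all 14 other settings of the analysis and without each of the 26 arrays in turn. With the red blood cell markers as a covariate it was -0.66 (limma, adjusted p = 0.0209).

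PKM was measured by 5 probes, of which 4 are shown here because 1 of them behaved differently. The probe that represents the gene lies at base 1973 of its listed transcript, and its 30 leading bases are given. The other 3 are given whole and start at bases 501, 785 and 1383. No letter is marked.
PKM A_72_P288214: tctcttcctttgtgtactcctgtagttctg
PKM A_72_P547761: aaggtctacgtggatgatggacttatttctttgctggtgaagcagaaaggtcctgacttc
PKM A_72_P477865: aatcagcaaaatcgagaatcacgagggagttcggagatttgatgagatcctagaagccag
PKM A_72_P257617: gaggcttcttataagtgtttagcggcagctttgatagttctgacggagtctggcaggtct

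Of the 5 probes, 4 gave HS minus TN differences between -0.81 and -0.78 and passed. The fifth, A_72_P257617, gave -0.52 ± 0.19 (SE) and did not pass (limma, adjusted p = 0.0705). The files list it under 1 of the 2 transcripts that A_72_P547761 and A_72_P477865 share, and the isoform it measures was not settled here. Its difference was -0.62 in Creole, -0.78 in F1 and -0.19 in LW, where the representative probe gave -0.96, -0.62 and -0.85. After the 6 group means were removed, its level correlated over the 26 arrays with the mean of the skeletal muscle markers at r of 0.75. The same correlation was 0.62 for A_72_P477865, 0.52 for O9683, 0.37 for A_72_P547761 and 0.31 for the representative probe, all of which passed for HS minus TN. The level of A_72_P257617 also correlated with the mean of the fibroblast and matrix markers (-0.62) and with that of the adipocyte markers (0.53). For the representative probe these values were -0.415 and 0.243. The correlations are descriptions, since all levels come from the same libraries. Whether muscle RNA or that of another cell type accounts for the difference between the probes was not tested.

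PGK1, which transfers a phosphate to ADP in the step before the mutase, was also lower in HS pigs. In TN pigs, its levels were 14.80, 14.92 and 14.66 in Creole, 14.60, 14.53, 14.87 and 14.49 in F1, and 14.47, 14.56, 14.73 and 14.41 in LW. In HS pigs, they were 14.45, 14.50, 14.68, 14.52 and 13.68 in Creole, 14.10, 14.05, 14.09, 14.59 and 14.42 in F1, and 13.86, 13.81, 13.995, 13.91 and 13.97 in LW. Again every HS animal lay below the TN mean of its breed. In LW the TN and HS animals did not overlap (5.03% of all tested probes), and 1 Creole HS animal lay far below the other 4.

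The mean level of PGK1 was 14.64 ± 0.17 (SD) over the 11 TN animals and 14.17 ± 0.32 (SD) over the 15 HS animals. The fitted difference was -0.48 ± 0.09 (SE), a ratio of 0.716, with an adjusted p of 0.000999 (limma). All 7 probes of the gene passed, with differences between -0.51 and -0.45 and adjusted p-values of 0.000999 to 0.00416. Within the slides the difference ran from -0.75 to -0.13 and was negative on all 5. With the red blood cell markers as a covariate it was -0.36 and no longer passed (limma, adjusted p = 0.0909). The 30 leading bases of the representative probe, from base 1519 of the transcript, are given.
PGK1 A_72_P746223: ctggatttgcctatattcctcaagatccca
Of the other 6 probes, 3 overlap each other by 24 to 55 bases and are not independent measurements.

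ENO1, which makes phosphoenolpyruvate, had 1 probe and a smaller difference. In TN pigs, its levels were 14.21, 14.36 and 14.32 in Creole, 14.37, 14.15, 14.35 and 13.97 in F1, and 13.92, 14.19, 14.02 and 14.07 in LW. In HS pigs, they were 14.26, 14.18, 14.11, 14.10 and 13.41 in Creole, 14.15, 13.87, 13.72, 14.24 and 14.14 in F1, and 13.65, 13.74, 13.41, 13.83 and 13.81 in LW. The TN and HS animals overlapped in Creole and F1 and did not in LW (5.03% of all tested probes), and 14 of the 15 HS animals lay below the TN mean of their breed. The single probe is given whole.
ENO1 O15015: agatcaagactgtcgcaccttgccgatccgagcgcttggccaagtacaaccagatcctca
The mean level was 14.18 ± 0.16 (SD) over the 11 TN animals and 13.91 ± 0.29 (SD) over the 15 HS animals. The fitted difference was -0.28 ± 0.08 (SE), a ratio of 0.825, with an adjusted p of 0.0252 (limma). It was negative on all 5 slides, from -0.56 to -0.10. The call was lost without 1 LW TN animal, replicate 2 (limma, adjusted p = 0.0522). It was also lost with the red blood cell markers as a covariate (-0.12, limma adjusted p = 0.547), with the fibroblast and matrix markers as a covariate (-0.16, limma adjusted p = 0.321), and without breed in the model (-0.27, limma adjusted p = 0.0735).

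GPI, which interconverts the hexose phosphates, gave a small difference whose call depended on the probe and on the processing. The level of the representative probe ranged from 14.25 to 14.76 with a median of 14.61 in TN, and from 14.14 to 14.64 with a median of 14.41 in HS. The groups overlapped, and 14 of the 15 HS animals lay below the TN mean of their breed. The difference was -0.15 ± 0.05 (SE) and did not pass (limma, adjusted p = 0.0726), although it did without LW TN replicate 1 (limma, adjusted p = 0.0478). For GPI, HS minus TN, log2 differences passed in 3 of the 14 other settings, with -0.26 on the processed signal (limma, adjusted p = 0.00437), -0.20 for the mean of its probes (limma, adjusted p = 0.0173) and -0.17 with the muscle markers as a covariate (limma, adjusted p = 0.0286). A second probe with the identical 60-base sequence gave -0.14 ± 0.04 (SE) and passed (limma, adjusted p = 0.0372). Of the 6 tested probes 3 passed, and those with the largest differences were A_72_P146806 with -0.34 (limma, adjusted p = 0.00821) and A_72_P458444 with -0.23 (limma, adjusted p = 0.0186). The 2 sequences are given whole, from bases 790 and 1652 of the transcript, and the capitals mark the 39 bases that A_72_P458444 shares with another probe of the gene, A_72_P066606.
GPI A_72_P146806: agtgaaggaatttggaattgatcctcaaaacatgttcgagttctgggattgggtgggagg
GPI A_72_P458444: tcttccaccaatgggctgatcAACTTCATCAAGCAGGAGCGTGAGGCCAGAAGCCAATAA
The probe that shares those bases gave -0.19 and did not pass (limma, adjusted p = 0.206). The dimmest tested probe, O14394, gave -0.17 (limma, adjusted p = 0.299) and its deviations from the group means correlated with those of the other 5 at r between -0.05 and 0.44, against 0.50 to 0.80 among those 5.

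The hexokinases did not pass. HK2, the insulin-responsive isoenzyme, varied the most, with levels of 11.13 to 13.92 (median 12.26) in TN and 10.48 to 13.37 (median 11.77) in HS. Its difference of -0.56 had a 95% interval of -1.23 to 0.11 (limma, adjusted p = 0.276), an interval that held both the difference of PKM and 0. HK1, the form found in most tissues, ranged from 14.09 to 15.05 (median 14.62) in TN and from 13.83 to 15.09 (median 14.45) in HS. Its difference was -0.11, with an interval of -0.38 to 0.16 (limma, adjusted p = 0.643), and became 0.10 with the red blood cell markers as a covariate. The 3 probes of HK1 largely cover the same bases, which is why a pair of them is shown. A_72_P352783 and A_72_P541893 both start at base 3549 and differ by C25T, with positions counted from 1 at the 5′ end of the probe and the base of A_72_P352783 named first. The 30 bases around that position are given, with the differing base in capitals.
HK1 A_72_P352783: catcgcttttgtgagCcatgtcgtatgacc
HK1 A_72_P541893: catcgcttttgtgagTcatgtcgtatgacc
HK2 A_72_P203212: aaatacactgactctcagcctttgactgtc
The HK1 pair gave differences of -0.11 and -0.12 and their deviations correlated at r of 0.99. The third HK1 probe, O5171, shares 55 bases with A_72_P352783 and gave -0.15. Both probes of HK2 gave alike values, with -0.56 for the probe shown and -0.46 for the other.

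ALDOA, which cleaves the hexose into triose phosphates, ranged from 12.01 to 12.62 (median 12.33) in TN and from 11.60 to 12.88 (median 12.16) in HS. Its single probe gave -0.19, with an interval of -0.38 to 0.01 (limma, adjusted p = 0.208). TPI1, which interconverts the triose phosphates, ranged from 12.49 to 13.58 (median 13.35) in TN and from 11.85 to 13.62 (median 13.21) in HS. Its difference was -0.10, with an interval of -0.39 to 0.19 (limma, adjusted p = 0.694). The 6 probes of TPI1 gave differences between -0.12 and -0.06, none of which passed, and 2 of the 6 have the same sequence. The probe of ALDOA and a probe of TPI1 from base 468 are given whole, with capitals for the 23 bases that the latter shares with a neighbouring TPI1 probe, and the representative probe of TPI1 by its 30 leading bases.
ALDOA O7417: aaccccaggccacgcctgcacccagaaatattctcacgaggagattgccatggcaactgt
TPI1 A_72_P303269: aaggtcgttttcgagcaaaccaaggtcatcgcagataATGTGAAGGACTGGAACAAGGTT
TPI1 O6451: aaacacctggcactgagccctgtggtttgt

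LDHA, which reduces pyruvate to lactate, ranged from 12.68 to 13.79 (median 13.27) in TN and from 11.73 to 14.26 (median 13.06) in HS. Both extremes of the HS group were Creole animals. The difference was -0.14, with an interval of -0.49 to 0.22 (limma, adjusted p = 0.653), and it became 0.08 with the fibroblast and matrix markers as a covariate. The 3 probes of LDHA gave differences between -0.23 and -0.14, and none passed. The 30 leading bases of the representative probe, from base 1315 of the transcript, are given.
LDHA A_72_P086171: taaattggttcttgtaaaatagttctactt

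**Figure D2:**
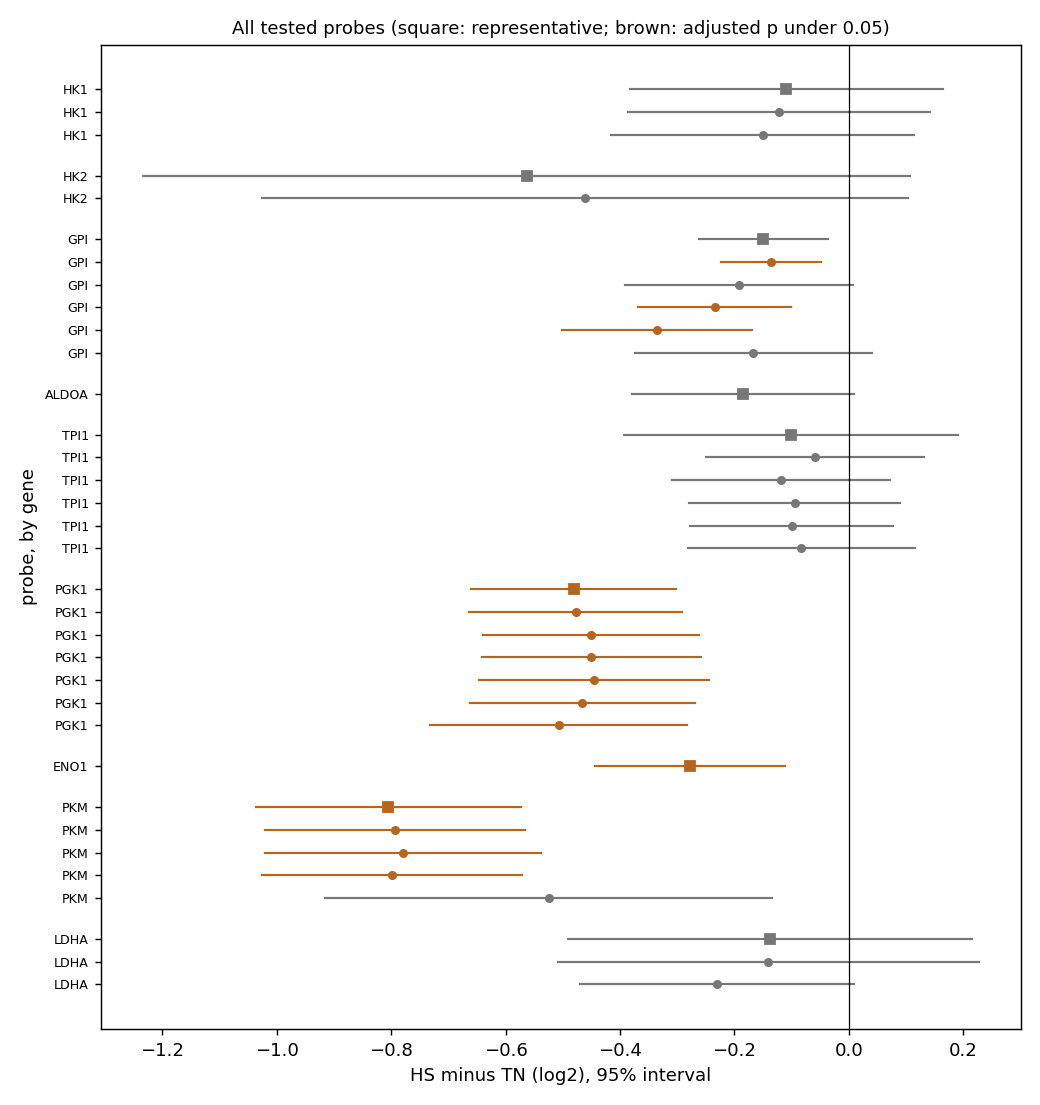
HS minus TN difference of each of the 34 tested probes, in log2 units with its 95% interval, ordered by gene along the pathway. Squares are the representative probes and brown marks an adjusted p under 0.05. All 34 differences lie below 0, the 7 PGK1 probes lie between -0.51 and -0.45, and 4 of the 5 PKM probes lie between -0.81 and -0.78. Probes of the same gene are not independent measurements.

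Within breeds, the comparison asks whether each breed shows the change on its own, from 3 or 4 TN and 5 HS animals. In LW, 2 of the 9 genes passed, where 1.44% of named genes did and 0.934% were lower. The LW difference was -0.85 ± 0.19 (SE) for PKM (limma, adjusted p = 0.0259) and -0.64 ± 0.15 (SE) for PGK1 (limma, adjusted p = 0.0312). Neither passed with slide as a fixed block, with the mean of a gene's probes, or with the red blood cell or matrix markers as a covariate. Over the 13 other settings the LW difference ran from -0.996 to -0.62 for PKM and from -0.80 to -0.48 for PGK1. The PKM call was lost without LW TN replicate 2, 3 or 4 or LW HS replicate 1, 3 or 4, and the PGK1 call without LW TN replicate 1, 2 or 3 or LW HS replicate 1, 2, 3 or 4, with adjusted p-values of up to 0.103 (limma). No gene of the set passed in Creole (0.0763% of named genes) or F1 (0.41%), where 2 of the 9 genes had an unadjusted p under 0.05 in each, as did 4975 of all 44703 probes in Creole and 7133 in F1. The difference of PKM was -0.96 ± 0.21 (SE) in Creole (limma, adjusted p = 0.0741) and -0.62 ± 0.19 (SE) in F1 (limma, adjusted p = 0.117). Without Creole HS replicate 3 the Creole value was -1.09 and passed (limma, adjusted p = 0.0220).

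PGK1 differed by -0.43 in Creole and -0.37 in F1, and ENO1 by -0.29, -0.19 and -0.36 in Creole, F1 and LW, none of which passed (limma, adjusted p from 0.184 to 0.545). HK2 gave -0.90 in Creole and -1.11 in LW but 0.27 in F1, with adjusted p-values of 0.591, 0.292 and 0.856 (limma). Without F1 TN replicate 2 the F1 value of HK2 was -0.05. All 9 genes had negative differences in Creole and in LW, and 6 of the 9 did in F1. The shares over named genes were 51.8% in Creole, 48.7% in LW and 52.6% in F1. The test of the breed by temperature interaction called none of the 9 genes (limma, adjusted p from 0.897 to 0.981) and none had an unadjusted p under 0.05, which 2336 of the 44703 probes had. It called 1 of the 44703 probes (0.00224%), and the share of true interactions that it would find was not measured.

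**Figure D3:**
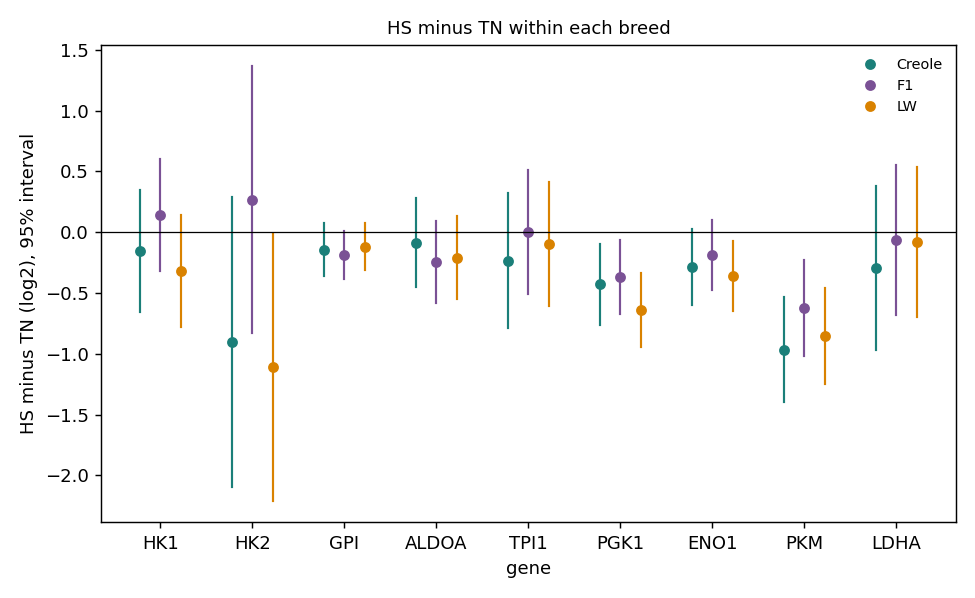
HS minus TN difference of each gene within Creole, F1 and LW, in log2 units with 95% intervals. The intervals of the 3 breeds overlap for every gene, and those of PKM lie below 0 in each breed.

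Animals were next compared by breed. LW pigs had lower levels than Creole pigs for 5 of the 9 genes, where 15.3% of named genes passed and 8.61% passed and were lower. These were GPI, ALDOA, PGK1, ENO1 and PKM, and 7 of the 9 genes had a negative difference, as did 51.8% of named genes. The median difference of the 9 genes was -0.36, and that of all tested probes was 0.00246.

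For GPI, levels ran from 14.23 to 14.76 (median 14.62) in Creole and from 14.14 to 14.62 (median 14.35) in LW, with all 9 LW animals below the Creole median. The difference was -0.24 ± 0.07 (SE; limma, adjusted p = 0.0167), and it passed without each array in turn. Other probes of GPI gave larger differences, with -0.64 for A_72_P066606 (limma, adjusted p = 0.00126) and -0.55 for A_72_P146806 (limma, adjusted p = 0.00107). Of the 6 tested GPI probes 5 passed, where 14.3% of all tested probes did, and the exception was the dim probe O14394 with 0.05 (limma, adjusted p = 0.824). For PGK1, levels ran from 13.68 to 14.92 (median 14.59) in Creole and from 13.81 to 14.73 (median 13.995) in LW. Its difference was -0.37 ± 0.11 (SE; limma, adjusted p = 0.0215) and 6 of its 7 probes passed. The lowest animal of both breeds was the Creole HS replicate 5, and the PGK1 call was lost without Creole HS replicate 3 (limma, adjusted p = 0.0510).

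The other calls stood close to the threshold. ALDOA differed by -0.36 ± 0.12 (SE; limma, adjusted p = 0.0344), with 9 of 9 LW animals below the Creole median and ranges of 11.68 to 12.88 in Creole and 11.60 to 12.31 in LW. PKM differed by -0.41 ± 0.14 (SE; limma, adjusted p = 0.0442), with ranges of 11.92 to 13.45 in Creole and 11.70 to 13.24 in LW, and 4 of its 5 probes passed. ENO1 differed by -0.29 ± 0.10 (SE; limma, adjusted p = 0.0492), with ranges of 13.41 to 14.36 in Creole and 13.41 to 14.19 in LW. Leaving out each of the 26 arrays in turn, ALDOA passed in 16, PKM in 13 and ENO1 in 6 of the 26 fits, with adjusted p-values (limma) up to 0.0782, 0.100 and 0.102. With slide as a fixed block fewer genes of the set passed for LW minus Creole, and without temperature in the model none did, GPI and PGK1 included. Without Creole HS replicate 3 only GPI passed. None of the 5 passed with the skeletal muscle markers as a covariate (limma, adjusted p from 0.0562 to 0.116) or with the fibroblast and matrix markers as one (from 0.213 to 0.580). Over all 14 other settings the difference ran from -0.37 to -0.19 for GPI and from -0.49 to -0.22 for PGK1. It ran from -0.44 to -0.18 for ALDOA, from -0.56 to -0.22 for PKM and from -0.41 to -0.13 for ENO1. The mean of the muscle markers was 0.77 lower in LW than in Creole and that of the matrix markers 0.32 higher, with ranges in Creole and LW of -1.28 to 2.57 and -2.19 to 1.71 for muscle and of -0.78 to 0.28 and -0.07 to 0.52 for matrix.

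The remaining 4 genes did not pass for LW minus Creole. HK1 differed by -0.39, with an interval of -0.72 to -0.05 (limma, adjusted p = 0.109), and all 9 LW animals lay below the Creole median. Without Creole HS replicate 5 it was -0.51 and passed (limma, adjusted p = 0.0150). HK2 differed by -0.69, with an interval of -1.51 to 0.13 (limma, adjusted p = 0.261). TPI1 differed by 0.26 with an interval of -0.10 to 0.61 (limma, adjusted p = 0.344), but its other 5 probes gave values between -0.06 and 0.02. LDHA differed by 0.01 with an interval of -0.42 to 0.45 (limma, adjusted p = 0.976).

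The mean level of F1 pigs lay between those of the parental breeds for GPI, ALDOA, PGK1, ENO1 and PKM. It did so for HK1 and HK2 as well, and lay above both for TPI1 and LDHA. For ENO1 and PKM it was close to the Creole mean. The mean level of PKM, for example, was 12.75 ± 0.42 (SD, n = 9) in F1, beside 12.76 ± 0.58 (SD, n = 8) in Creole and 12.41 ± 0.53 (SD, n = 9) in LW. These breed means mix unequal numbers of TN and HS animals. In the fits that allow for temperature, none of the 9 genes passed for F1 minus Creole (0.219% of named genes), for F1 minus LW (4.3%) or for F1 against the mean of both breeds (0 of 10488 named genes). An unadjusted p under 0.05 was found for 1, 4 and 0 of the 9 genes in these limma fits, and for 4358, 9253 and 3884 of all 44703 probes. All 9 genes were higher in F1 than in LW, with a median difference of 0.26, where 47.3% of named genes were lower in F1. The test of any difference among the breeds called GPI alone of the 9 genes (limma, adjusted p = 0.0455), where 11.8% of named genes passed.

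**Figure D4:**
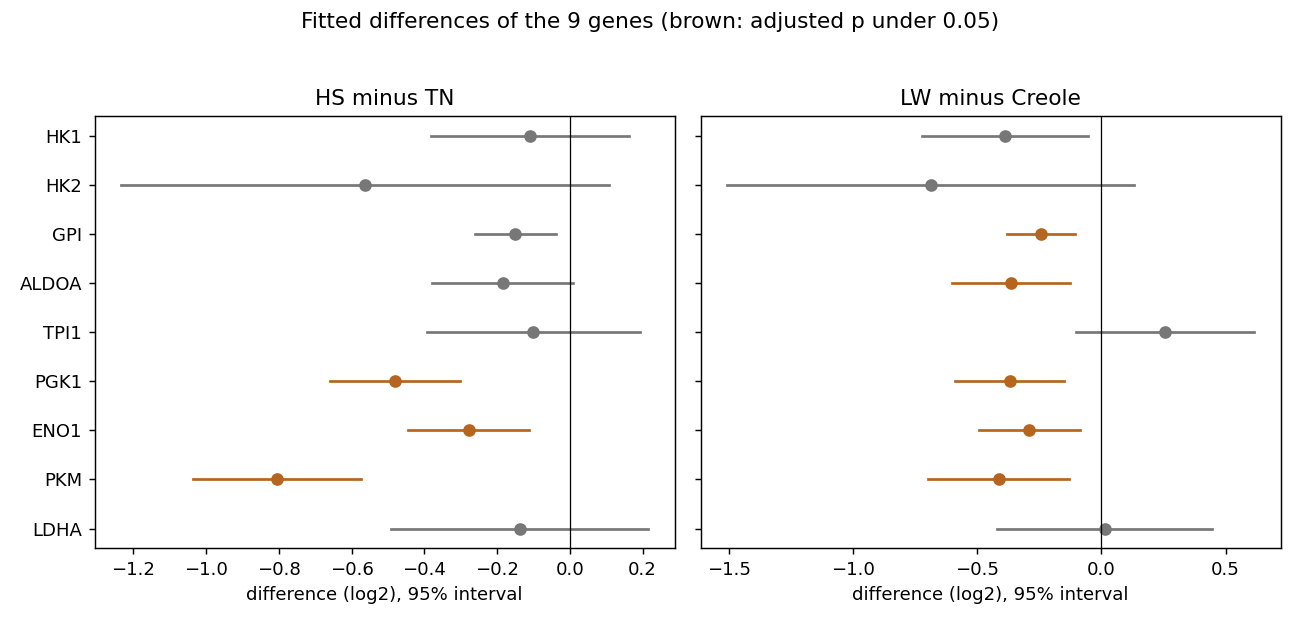
Fitted differences of the 9 genes for HS minus TN (left) and LW minus Creole (right), in log2 units with 95% intervals. Brown marks an adjusted p under 0.05, which 3 genes reached for temperature and 5 for breed, all below 0.

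The same pathway holds other genes, for which a list of 36 was drawn up, and 30 of them had a tested probe. Of the 13 measured isoenzymes and further steps, 2 were lower and 1 was higher in HS pigs, and 10 did not pass, where 12.6% of all named genes passed and 7.68% passed and were lower. PGAM1, the phosphoglycerate mutase that acts between PGK1 and ENO1, differed by -0.48 ± 0.08 (SE; limma, adjusted p = 0.000769). Its mean was 11.98 ± 0.22 (SD) over the 11 TN animals and 11.52 ± 0.32 (SD) over the 15 HS animals, all 15 HS animals lay below the TN mean of their breed, and both of its probes passed. GAPDHS, the sperm form of glyceraldehyde-3-phosphate dehydrogenase, differed by -0.36 (limma, adjusted p = 0.0426). ALDOC, the aldolase best known from brain, was 0.19 higher (limma, adjusted p = 0.0489). On the processed signal the ALDOC difference was 0.0981 and did not pass (limma, adjusted p = 0.427). Of the 14 other settings, the call of ALDOC held in 8 and that of GAPDHS in 7. Leaving out each array in turn, the call of GAPDHS held in 10 and that of ALDOC in 7 of the 26 fits, and GAPDH differed by -0.08 (limma, adjusted p = 0.464). The other measured enolases had positive differences that did not pass, unlike ENO1. These were 0.28 for ENO2 (limma, adjusted p = 0.0516) and 0.47 for ENO3 (limma, adjusted p = 0.456).

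Of the 17 measured regulators and branch genes, 3 were lower in HS pigs, TKT and PFKFB1 among them, and none was higher among those that passed, beside the same 12.6% and 7.68% of named genes. TKT, a transketolase of the pentose phosphate pathway, differed by -0.35 ± 0.06 (SE; limma, adjusted p = 0.00114) and all 3 of its probes passed. PFKFB1, which sets the level of an activator of phosphofructokinase, differed by -0.42 ± 0.12 (SE; limma, adjusted p = 0.0202), and all 5 of its probes passed. With the red blood cell markers as a covariate none of the 6 genes called from both lists passed (limma, adjusted p from 0.0734 to 0.594). With the fibroblast and matrix markers as a covariate PFKFB1 (-0.41, limma adjusted p = 0.110) and GAPDHS (-0.19, limma adjusted p = 0.417) did not pass. HIF1A, a transcription factor known to raise glycolytic genes, differed by -0.14 and did not pass (limma, adjusted p = 0.129).

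For LW minus Creole, 2 of the 13 isoenzyme genes were lower and 1 was higher, where 15.3% of all named genes passed and 8.61% passed and were lower. PGAM1 differed by -0.44 (limma, adjusted p = 0.00631), ALDOC by -0.23 (limma, adjusted p = 0.0493) and the neuronal enolase ENO2 by 0.48 (limma, adjusted p = 0.00793). Among the 17 regulators and branch genes 4 were lower and 1 was higher, beside the same shares. The transaldolase TALDO1 differed by -0.70 (limma, adjusted p = 0.00113), TKT by -0.43 (limma, adjusted p = 0.00125), and GPD1, which makes the glycerol phosphate of triglycerides, by -0.27 (limma, adjusted p = 0.0156). ADPGK, an ADP-dependent glucokinase, differed by -0.15 (limma, adjusted p = 0.0473), and PCK2, the mitochondrial phosphoenolpyruvate carboxykinase, was 0.44 higher in LW (limma, adjusted p = 0.00652). Leaving out each array in turn, the calls of ADPGK and ALDOC held in 10 and 8 of the 26 fits. With the fibroblast and matrix markers as a covariate TALDO1 and TKT passed (limma, adjusted p = 0.0300 and 0.0498), and PGAM1, ALDOC, ENO2, GPD1, ADPGK and PCK2 did not (limma, adjusted p from 0.142 to 0.514). The value of GPD1 was then -0.14. For PGAM1, LW minus Creole, log2 differences also did not pass without temperature in the model (-0.40, limma adjusted p = 0.0897).

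Most of the 9 genes varied together between animals of the same group. After the 6 group means were removed, the 36 pairs of genes had a median correlation of 0.43 over the 26 arrays, with a lowest of -0.21 and a highest of 0.79, and 16 pairs were above 0.5. ALDOA and ENO1 were the closest pair at r of 0.79. HK1 was closest to ENO1 (0.78), HK2 to HK1 (0.71), PGK1 to HK1 (0.75), LDHA to ALDOA (0.70) and PKM to ALDOA (0.58). TPI1 and GPI stood outside, with no correlation above 0.39 and 0.17 respectively. These values are descriptions, because all genes share the same libraries and their quality. Creole HS replicate 5 was the lowest of its group for HK1, HK2, ALDOA, PGK1, ENO1, PKM and LDHA. Its LDHA level was 11.73, where the mean of its group was 13.03. The correlations were not computed without that animal, and how far they rest on it was not tested. The mean deviation of the 9 genes had its highest correlations, over 10312 other named genes, with a group that held ND4 (0.92), TMEM160 (0.92), JPT1 (0.91) and CDK5 (0.90), against a median of -0.00848 over those genes. Among these 4, ND4 differed by -0.32 for HS minus TN (limma, adjusted p = 0.00151), and TMEM160, JPT1 and CDK5 did not pass.

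**Figure D5:**
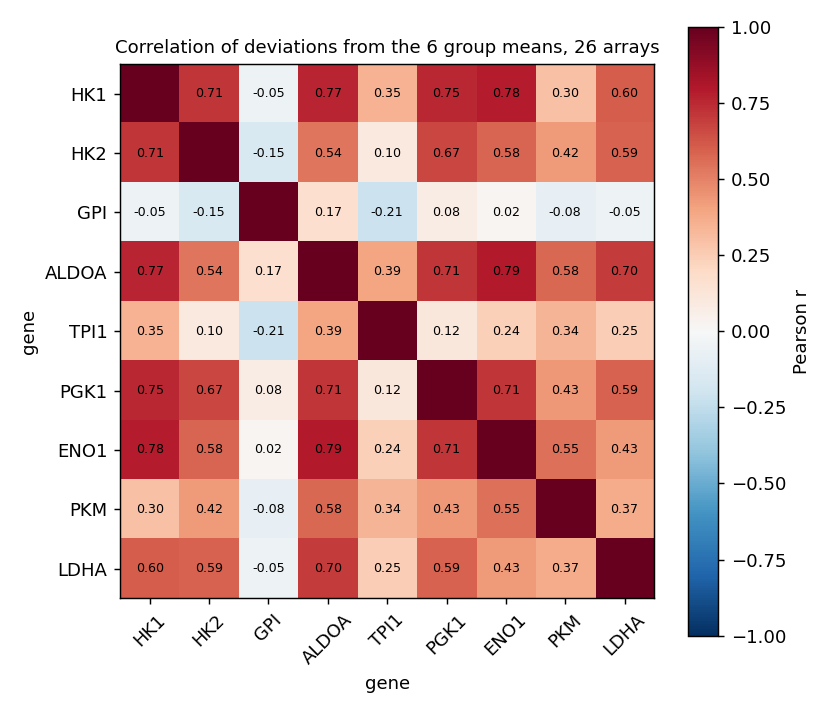
Pearson correlation of the deviations from the 6 group means between each pair of the 9 genes, over 26 arrays. Pairs among HK1, HK2, ALDOA, PGK1 and ENO1 have r of 0.54 to 0.79. With these genes LDHA correlates at 0.43 to 0.70 and PKM at 0.30 to 0.58. GPI and TPI1 correlate weakly with the rest. Creole HS replicate 5 is the lowest of its group for all genes but GPI and TPI1, and the correlations were not computed without it.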

How the data were processed

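The authors labelled RNA of each animal with Cy3, hybridised it to a porcine Agilent array and read it with Agilent Feature Extraction 10.10.1.1. The deposited scanner files hold spot intensity without normalization between arrays, a processed intensity and quality flags. The deposited series matrix holds the authors' log2 values, which were used only as an alternative. Here median intensities were left without background correction, quantile-normalised and put on the log2 scale with R 4.3.3, and spots of a probe were averaged. Non-uniform spots were set to missing. Spots were named by symbol (14392), accession (11920), synonym (198), former symbol (5) or description (1), and 33790 had no name. Models of breed plus temperature, or of 6 group means, were fitted with limma 3.58.1 (eBayes with an intensity trend) to 44703 probes. The study's random effects of pen, slaughter, father and mother are not in the labels and were left out. Slide numbers came from the scanner files. In simulated arrays with 44703 probes, 81% of 100 HS minus TN changes of 0.5 and 96% of 100 changes of 1 were recovered, and 8 unchanged probes were called. The simulated noise was independent between probes, no breed effect was included, and no other probes were changed. In the real arrays genes vary together and 12.2% of tested probes passed, so the simulated shares do not give the power or error rate there. The genes, gene lists and tests were chosen with earlier results of these data known. The representative probe was the tested probe with the highest mean level, the other pathway genes past the threshold were named, and likeness was the Pearson correlation of deviations from the group means. Marker lists also covered macrophages, the endothelium, T cells and keratinocytes, whose mean levels differed by 0.18, -0.05, 0.05 and 0.83 for HS minus TN. Only 3 of the 6 keratinocyte markers were measured, 1 of them was well above background on all arrays, and none passed. The keratinocyte mean ranged from -1.48 to 2.27 in TN and from -1.64 to 3.15 in HS. None of these means was entered as a covariate. The alternatives were other background correction and scaling, the series matrix, other filters, gene means, slide, array weights, the variance prior, marker scores and leaving out each array. The number of arrays limits the precision. Some genes and probe sequences are not reported here.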

Additional observations from a re-analysis of the deposited data

Results flagged for a closer look

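Among the 45 sets of 1 gene in 1 group of 4 or 5 animals, 4 held an animal far from the others, where chance gives about 1 in 20. Creole HS replicate 5 was the lowest of its group for PGK1, at 13.68 with the next animal at 14.45, and for ENO1, at 13.41 with the next at 14.10. Creole HS replicate 1 was the lowest of its group for GPI, at 14.23 with the next at 14.54. LW HS replicate 1 was the highest of its group for LDHA, at 13.49 with the next at 13.09. No gene had HS animals that all moved in opposite directions in different breeds.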

How the results depend on the processing

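The HS minus TN calls of PKM were kept in all 14 alternatives (-0.89 to -0.66) and without each array in turn (-0.85 to -0.76). The number of the 9 genes called for HS minus TN was 3, ranged from 1 to 4 over the alternatives and from 2 to 4 without single arrays, and was 1 with the red blood cell score as a covariate. Within LW the count was 2. It was 0 with the mean of a gene's probes, with slide as a fixed block and with the red blood cell or matrix score, and it ranged from 0 to 2 without single arrays. Within Creole it was 0, became 1 with array weights, where PKM passed (limma, adjusted p = 0.0449), and ranged from 0 to 1 without single arrays. For LW minus Creole the count was 5. It was 3 with no filter, 2 with slide as a fixed block, and 0 without temperature in the model or with the muscle or matrix score, and it ranged from 1 to 6 without single arrays. For any difference among breeds it was 1. It was 5 with the processed signal, 2 with normexp or with a filter on every array, 3 with the mean of probes or the red blood cell score, 4 with array weights, and 0 with no filter, without temperature in the model, without the intensity trend or with the muscle or matrix score, and it ranged from 0 to 5 without single arrays. For F1 minus LW it was 0, became 1 with the mean of probes (GPI), and ranged from 0 to 1 without single arrays. The counts for F1 minus Creole, F1 against the mean of both breeds, HS minus TN in F1 and the interaction were 0 in every setting.

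Some values of genes that did not pass changed sign. For LDHA, LW minus Creole, log2 differences were 0.01 as reported, and -0.0853 with the processed signal, -0.0838 with the mean of probes, -0.00727 with array weights, -0.00958 with the red blood cell score and -0.18 to 0.18 without single arrays. HS minus TN of HK1 became 0.10 with the red blood cell score and 0.0492 with the matrix score, that of LDHA became 0.0829 with the matrix score, and that of HK2 in F1 ranged from -0.0479 to 0.75 without single arrays. The matrix score was added after the data were seen. Why the counts moved was not tested. The paper describes blocks of littermates within each breed, housed across pens that were slaughtered at either temperature. Littermates may therefore stand in both temperature groups. The labels give no litter or replicate number and each animal gave 1 array, so no paired analysis was possible. The tests treat littermates as unrelated animals. P-values measure the spread between animals, and all animals of a temperature share its days of slaughter.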
